A study of Mus musculus with 4 samples.

Results

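Chemokine genes were examined in mouse embryonic fibroblasts (MEF cells) that were wt or lacked topoisomerase 2β (Top2β-null MEF cells). The members are the gene rows of the count table whose symbol is Cxcl with a number, Ccl with a number and an optional letter, or Cx3cl1, and which GENCODE annotates as protein-coding. This rule uses names and annotation, not measured values, and gave 43 rows of the 54842 gene rows, of which 12 were CXC, 30 were CC and 1 was Cx3cl1. The data are total RNA libraries, depleted of ribosomal RNA, of which 2 came from wt and 2 from Top2β-null MEF cells, all untreated. The question set by the design is how transcript levels differ between these genotypes. The Top2β-null MEF cells derive from Top2β-null mice and were a gift of other laboratories, so that loss of Top2β and origin of the cells cannot be told apart. The labels do not say whether the replicates are separate cultures, and p-values then measure the spread between these libraries alone.

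Chemokines are small secreted proteins that guide migrating cells by binding receptors that signal through G proteins. They are grouped by the spacing of their first cysteines into CC and CXC proteins, and Cx3cl1 (fractalkine) is the CX3C protein, which sits on the membrane by a stalk. Fibroblasts are known to make Cxcl12 constitutively, and to make monocyte and neutrophil attractants such as Ccl2 and Cxcl1 when NF-kB is active. Interferons are known to induce Cxcl9, Cxcl10 and Cxcl11. Most chemokine receptors are made by leukocytes rather than by fibroblasts.

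Library totals over genes and repeat families lay between 133116830 and 149647278 counts. Top2b, the targeted gene, had 18259 and 18465 normalized counts in wt MEF cells and 3879 and 3789 in Top2β-null MEF cells, or 20.9% of the wt mean. A normalized count is a count scaled by edgeR's TMM factors to a common library size. Of the 10 fibroblast markers listed, 9 passed the filter on low counts. Among these, 4 rose and 4 fell by adjusted p alone, where 32.5% of all features did in each direction. Col1a1 fell most, 2.61-fold in Top2β-null MEF cells, and Dcn rose most, 31.8-fold, from 226 and 223 to 7053 and 7239 normalized counts. Lum was not tested, with at most 4 counts in any library. The leukocyte list held 14 genes, of which 8 averaged fewer than 10 normalized counts. Tyrobp and Adgre1 were at 0 counts in all 4 libraries, and Ptprc had between 2 and 7 counts. The summed level of the leukocyte markers was 3234 and 3299 normalized counts in wt and 2113 and 2135 in Top2β-null MEF cells. The largest part of this sum in wt was Cd68, a lysosomal protein of macrophages and other cells, which fell from 1641 and 1688 to 302 and 289 normalized counts. Of the 6 leukocyte markers tested, 3 rose and 1 fell by adjusted p alone, where 32.5% of all features did in each direction. Those that rose were Csf1r (740 and 767 against 962 and 977 normalized counts), Fcer1g (30.3 and 33.8 against 53.9 and 53.5) and Itgam, which went from 1 count in each wt library to 27 and 29 counts and passed the filter through these alone. The epithelial markers summed to 757 and 780.4 normalized counts in wt and 586 and 589 in Top2β-null MEF cells, and the endothelial markers to 241 and 214 against 368 and 369. Single markers went against these sums or moved further, as Kdr rose 2.91-fold while Tek fell 5.89-fold among the endothelial genes. Krt8 fell 8.93-fold among the epithelial genes, while Krt19, the largest part of the epithelial sum, fell 1.23-fold. Tek and Krt8 passed the filter through their wt libraries alone, so that they had to differ. The part of other cell types in the results was not tested, and fewer cells that carry a transcript and less of it per cell cannot be told apart in these bulk libraries.

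In Top2β-null MEF cells, Cx3cl1, Cxcl1, Ccl5, Cxcl10 and Cxcl12 were higher than in wt MEF cells, by 9.44-fold, 4.14-fold, 4.13-fold, 3.36-fold and 2.09-fold. Ccl7, Ccl2 and Cxcl16 were lower, by 23.0-fold, 8.01-fold and 2.13-fold. These 8 genes were called, which means an adjusted p below 0.05, a log2 fold change beyond 1 in either direction and more than 100 normalized counts on average. The p-values are those of the quasi-likelihood test of edgeR, adjusted after Benjamini and Hochberg over every feature tested. By this rule 5 members were called higher, against 5.27% of all 26566 genes and repeat families tested, and 3 were called lower, against 4.97%. Calls in either direction made up 10.2% of all features tested, and 15.1% of the 17952 features with a mean normalized count over 100, of which 9 were chemokine genes. Of those 9, the 8 called genes were all but Ccl25.

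Of the 43 members, 16 reached 10 counts in 2 or more libraries and could be tested. Cxcl5 and Ccl28 passed this filter through their Top2β-null libraries alone, so that they had to differ. By adjusted p alone, 9 members rose (32.5% of all features tested did) and 7 fell (32.5% as well), and none of the 16 had an adjusted p above 0.05. In all 16 the libraries of both genotypes did not overlap, as in 80.5% of all features tested. The median absolute log2 fold change was 2.05 over the 16 members and 0.39 over all features. The signed median over the members was 1.39, but it was 0.22 without Top2β-null replicate 1 and 0.24 without Top2β-null replicate 2, since Cxcl5 and Ccl28 then miss the filter and the middle of the 14 members left falls between those that rose and those that fell.

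**Figure D1:**
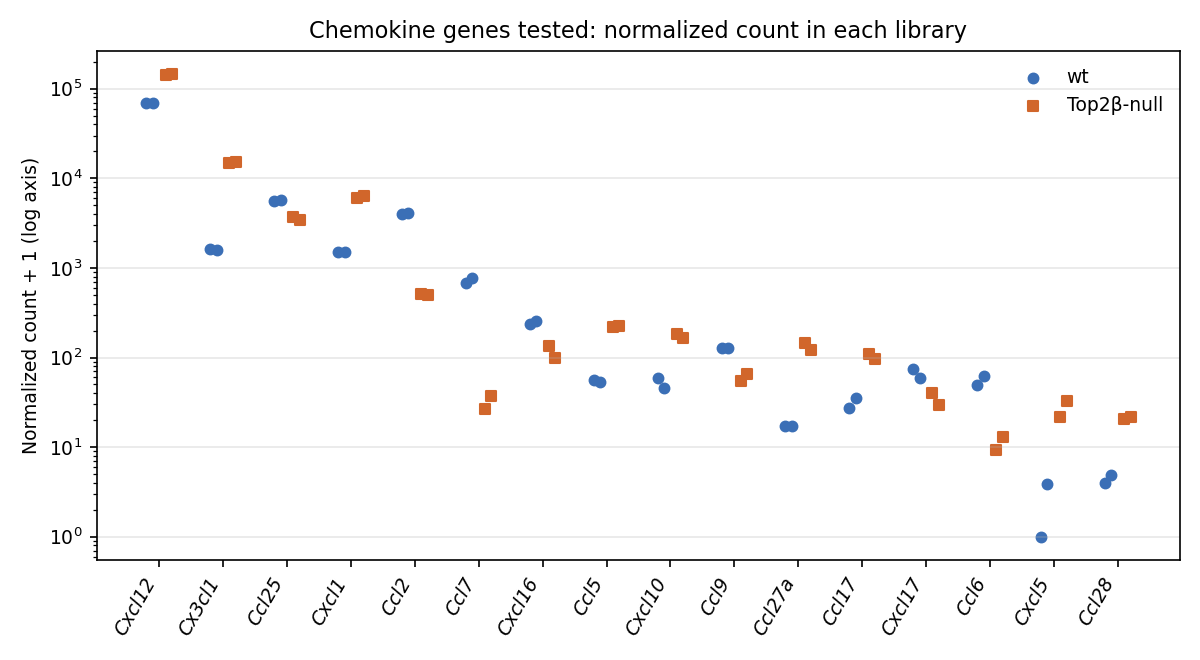
Normalized count plus 1 on a log axis for the 16 chemokine genes tested, ordered by mean level, with a point for each library (blue circles, wt; orange squares, Top2β-null). Levels reach from 0 for Cxcl5 in a wt library to 146118 normalized counts for Cxcl12. The points of both genotypes do not overlap in any of these genes, and replicates lie farthest apart at low counts, as for Cxcl5 in wt.

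**Figure D2:**
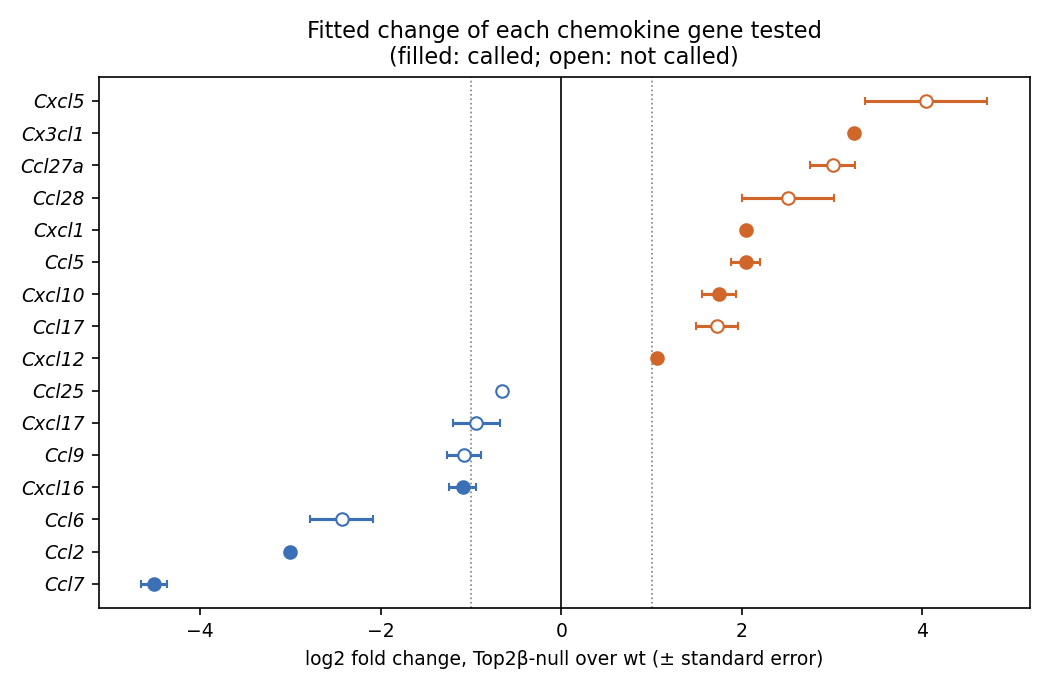
Log2 fold change of Top2β-null over wt MEF cells with its standard error (bars) for the 16 chemokine genes tested. Filled points were called and dotted lines mark the absolute log2 fold change of 1. Fitted values run from -4.51 for Ccl7 to 4.04 for Cxcl5, and Cxcl12 lies just past the line at 1.06.

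Cxcl12, the ligand of Cxcr4 that keeps stem cells and leukocytes in their niches, had the highest level per length of all members in every library. It had 68562 and 69155 normalized counts in wt MEF cells and 141499 and 146118 in Top2β-null MEF cells. Both Top2β-null libraries thus lay far above both wt libraries. The log2 fold change came to 1.06 ± 0.0286 (SE), with an adjusted p of 1.2e-14 by edgeR. Cxcl12 (ENSMUSG00000061353) lies on chromosome 6 of GRCm38 from 117168535 to 117181367, and none of its 8216 transcript words of 50 bases occurs in a transcript of another gene.

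Cx3cl1 attracts and holds cells that carry Cx3cr1, and is released from the membrane by the proteases Adam10 and Adam17. It rose from 1613 and 1565 normalized counts in wt to 14734 and 15251 in Top2β-null MEF cells. The replicates differed by a small part of this distance, and the log2 fold change came to 3.24 ± 0.0320 (SE), with an adjusted p of 7.8e-20 by edgeR. Relative to Cxcl12 in the same library, which needs no scaling, the log2 ratio of Cx3cl1 counts was -5.44 ± 0.0397 (SD, n = 2) in wt MEF cells and -3.26 ± 0.00242 in Top2β-null MEF cells. A two-sided exact permutation test gave p = 0.33 for this ratio, the smallest p that 2 libraries against 2 allow. Adam10 rose by 0.55 and Adam17 fell by 0.25 on the log2 scale (edgeR, adjusted p = 8.9e-12 and 6.9e-07).

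Cxcl1, Cxcl2, Cxcl3 and Cxcl5, which attract neutrophils through Cxcr2, lie with Cxcl15 in a stretch of 146.6 kb on chromosome 5. Cxcl1 (ENSMUSG00000029380, from 90891241 to 90893115) had 1512 and 1488 normalized counts in wt MEF cells and 6026 and 6389 in Top2β-null MEF cells. Its log2 fold change came to 2.05 ± 0.0402 (SE), with an adjusted p of 2.4e-16 by edgeR, with no overlap between the genotypes. Cxcl5 had 0 and 3 counts in wt and 20 and 32 counts in Top2β-null MEF cells, a ratio of 17.8 between the groups with a 95% exact interval from 5.76 to 89.0 that covers counting error alone. Its adjusted p was 7.2e-05 by edgeR. Cxcl3 (2 and 1 counts against 7 and 4), Cxcl2 (0 and 0 against 2 and 1) and Cxcl15 (0 and 3 against 1 and 2) were not tested at these counts. Ppbp, a platelet chemokine of the same stretch whose symbol falls outside the rule, rose to 424 and 465 normalized counts from 8.07 and 31.9 in wt MEF cells, and its wt libraries lay far apart. Its log2 fold change came to 4.45 ± 0.238 (SE), with an adjusted p of 8.2e-11 by edgeR. Cxcl5 passed the filter through its Top2β-null libraries alone, so that Cxcl1 is the member of this stretch whose rise the filter did not fix.

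The same 11 bases, GGGAATTTCCC, a match to the NF-kB motif, stand before the starts of Cxcl1, Cxcl2 and Cxcl3. They are printed to show that genes of very different level share them. RefSeq windows on GRCm38.p6 were used, and each line gives bases -110 to -51 before the start, counted back from the start site, on the forward strand, with the match in capitals. Among 27025 genes with a window, 14 hold these 11 bases in the 250 bases before a start, and these 3 are the only members among them. This word was chosen after the matches were seen. Compared base by base without gaps, the Cxcl1 stretch was identical to that of Cxcl2 at 17 of 60 positions and to that of Cxcl3 at 20 of 60.
Cxcl1, chr5:90891135-90891194: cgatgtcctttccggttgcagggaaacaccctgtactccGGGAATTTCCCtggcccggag
Cxcl2, chr5:90903789-90903848: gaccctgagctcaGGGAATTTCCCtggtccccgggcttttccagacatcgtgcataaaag
Cxcl3, chr5:90785991-90786050: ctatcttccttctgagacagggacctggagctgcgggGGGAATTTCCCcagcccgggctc

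Cxcl10 (ENSMUSG00000034855), which attracts T cells through Cxcr3, lies on chromosome 5 from 92346638 to 92348889 next to Cxcl9. It had 58.5 and 44.4 normalized counts in wt MEF cells and 182 and 163 in Top2β-null MEF cells. The genotypes did not overlap and the log2 fold change came to 1.75 ± 0.186 (SE), with an adjusted p of 4.5e-07 by edgeR. Its mean over all libraries lay near the cut-off of 100 normalized counts, and Cxcl10 was not called when either Top2β-null replicate was left out, although its log2 fold change was then 1.71 or 1.84. Cxcl10 shares 133 exon bases, 5.9% of its exons, with Art3 on the opposite strand, and Art3 had 59, 76, 81 and 77 counts in the wt and Top2β-null libraries. Cxcl9 had at most 2 counts in any library. Cxcl11 is annotated as a polymorphic pseudogene, is therefore no member, and had 0 and 1 counts in wt and 2 and 6 in Top2β-null MEF cells. Of the trio known for induction by interferon, Cxcl10 alone was thus measured at a level that could be tested.

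Ccl5 (ENSMUSG00000035042), an attractant of T cells and monocytes, lies on chromosome 11 from 83525778 to 83530518. It had 54.5 and 52.2 normalized counts in wt MEF cells and 216 and 224 in Top2β-null MEF cells, with replicates close to each other in both genotypes. The log2 fold change came to 2.04 ± 0.160 (SE), with an adjusted p of 1.1e-08 by edgeR. Its neighbours Ccl9 and Ccl6, attractants of myeloid cells through Ccr1 that are known from rodents, went the other way. Ccl9 had 125.2 and 125.6 normalized counts in wt MEF cells and 53.9 and 64.4 in Top2β-null MEF cells, which gave -1.08 ± 0.188 (SE) as log2 fold change and 9.7e-05 as adjusted p by edgeR. Ccl6 fell from 48.5 and 61.8 to 8.29 and 11.9 normalized counts, which gave -2.43 ± 0.351 (SE) as log2 fold change and 1.5e-05 as adjusted p by edgeR. Both averaged under 100 normalized counts and were not called. Ccl4 had 4 counts in each Top2β-null library and 0 in wt, and Ccl3 had 1 count in all. Within each library, the log2 ratio of Ccl5 to Ccl9 counts went from -1.23 ± 0.0482 (SD, n = 2) in wt MEF cells to 1.90 ± 0.148 in Top2β-null MEF cells.

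Ccl2 and Ccl7, the monocyte attractants that bind Ccr2, are neighbours on chromosome 11, with Ccl2 (ENSMUSG00000035385) from 82035571 to 82037453 and Ccl7 (ENSMUSG00000035373) from 82045712 to 82047525. Ccl2 fell from 3988 and 4058 normalized counts in wt to 506 and 498 in Top2β-null MEF cells. Its log2 fold change came to -3.0 ± 0.0494 (SE), with an adjusted p of 2.6e-17 by edgeR. Ccl7 fell from 673 and 762 to 25.9 and 36.7 normalized counts, which gave -4.51 ± 0.142 (SE) as log2 fold change and 8.7e-14 as adjusted p by edgeR. For both genes every wt library lay above every Top2β-null library. The log2 ratio of Ccl7 to Ccl2 counts was -2.49 ± 0.109 (SD, n = 2) in wt MEF cells and -4.03 ± 0.371 in Top2β-null MEF cells, so that the fall of Ccl7 was larger by 1.54 on the log2 scale (exact permutation, two-sided p = 0.33, again the least possible here). In the same stretch of 270.1 kb, Ccl8 had 15 and 9 counts in wt and 0 and 1 in Top2β-null MEF cells. The ratio of wt to Top2β-null was 23.4 for Ccl8, with a 95% exact interval from 3.82 to 962 for counting error alone. Ccl11, an eotaxin, had 2 counts in each wt library and 0 in the others, Ccl1 had 1 count in all and Ccl12 had 0, and none of these was tested. No other protein-coding gene in this stretch or in that of Ccl5 passed the filter.

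On chromosome 8, Cx3cl1 (ENSMUSG00000031778, from 94772009 to 94782427) lies between Ccl22 and Ccl17, which both bind Ccr4 on T cells. Ccl17 rose from 26.2 and 34.8 normalized counts in wt to 107.7 and 95.1 in Top2β-null MEF cells, without overlap. Its log2 fold change came to 1.72 ± 0.236 (SE), with an adjusted p of 8.2e-06 by edgeR, and its mean lay under the cut-off of 100. Ccl22 had 4 and 0 counts in wt and 1 and 0 in Top2β-null MEF cells. Both tested members of this stretch of 66.4 kb thus rose.

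Ccl25, a chemokine of thymus and gut that binds Ccr9, had 5537 and 5738 normalized counts in wt MEF cells and 3715 and 3414 in Top2β-null MEF cells. It fell by 0.66 on the log2 scale (SE 0.0388, edgeR adjusted p = 2.7e-10), which is less than the change asked of a call. Ccl25 shares 204 exon bases, 2.7% of its exons, with Elavl1 on the opposite strand, which had 35828 and 37316 counts in wt and 25391 and 26815 in Top2β-null MEF cells. How much of the Ccl25 count comes from Elavl1 RNA was not tested. Cxcl16 (ENSMUSG00000018920, chromosome 11 from 70453983 to 70459984), a membrane-bound ligand of Cxcr6, had 234 and 256 normalized counts in wt MEF cells and 133 and 98.1 in Top2β-null MEF cells, which gave -1.09 ± 0.149 (SE) as log2 fold change and 8.0e-06 as adjusted p by edgeR. It was not called without Top2β-null replicate 2, where the log2 fold change was -0.87. Cxcl16 shares 552 exon bases, 18.3% of its exons, with Zmynd15 on the opposite strand, which had 92 and 91 counts in wt and 17 and 31 in Top2β-null MEF cells. Cxcl17, a mucosal chemokine, fell from 72.7 and 58.0 to 39.4 and 28.7 normalized counts, which gave -0.94 ± 0.264 (SE) as log2 fold change and 0.0054 as adjusted p by edgeR. Its adjusted p was 0.053 without Top2β-null replicate 2, where the log2 fold change was -0.71, and ranged from 0.0017 to 0.053 over the alternatives. The library kit marks strand, but the strand setting of the counting is not given in the sources used here.

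Ccl27a and Ccl28 share the receptor Ccr10 and are known from skin and mucosa. Ccl27a rose from 16.2 and 16.4 normalized counts in wt to 143 and 121 in Top2β-null MEF cells, which gave 3.01 ± 0.248 (SE) as log2 fold change and 2.0e-08 as adjusted p by edgeR. Its count is uncertain as to the copy, because 45.0% of its transcript words of 50 bases also occur in transcripts of other genes, among them its copy Ccl27b and the gene models Gm20878 and Gm13306. Ccl28 had 3 and 4 counts in wt and 19 and 21 counts in Top2β-null MEF cells, which gave 2.51 ± 0.508 (SE) as log2 fold change and 4.1e-04 as adjusted p by edgeR. Ccr10 itself fell from 167 and 176 to 79.8 and 46.6 normalized counts.

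Of the 27 members that were not tested, 13 had 0 counts in all 4 libraries, and the 14 others had at most 15 counts in any library. The 7 members on unplaced scaffolds, which are copies of Ccl19, Ccl21 and Ccl27 genes, were all among those at 0. On the chromosomes, Ccl12, Ccl21a, Ccl21b, Ccl27b, Ccl26 and Cxcl13 were at 0 counts, which allows up to 3 counts in each library. Ccl20, the ligand of Ccr6, had 7 and 2 counts in wt and 11 and 7 in Top2β-null MEF cells, so that the genotypes overlapped. Cxcl14 had 2 counts in all, Ccl19 and Ccl24 had 1 each.

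Levels of different genes were compared per length, as normalized counts per kb of exon and 1000000 counts of the library. The summed level of the chromosome members was 107 and 109 in wt and 185 and 190.3 in Top2β-null MEF cells. Cxcl12 stood at 59.6 and 60.1 in wt and 123 and 127 in Top2β-null MEF cells, or 55.5% and 55.1% of the sum in wt and 66.6% and 66.7% in Top2β-null MEF cells. In wt MEF cells Ccl2 came next with 23.2% of the sum in both libraries, followed by Ccl7 with 5.56% and 6.20%, Cxcl1 with 5.34% and 5.17%, Ccl25 with 4.92% and 5.02% and Cx3cl1 with 2.71% and 2.59%. The order of Ccl7, Cxcl1 and Ccl25 rests on small distances. Ranks also depend on the length used, all annotated exons of a gene, which was 7445 bases for Ccl25 and 1138 for Ccl2. Without division by length, Ccl25 lay above Ccl2 in both wt libraries. In Top2β-null MEF cells, Cx3cl1 came after Cxcl12 with 14.4% and 14.5%, followed by Cxcl1 with 12.4% and 12.7%. Ccl2 had 1.71% and 1.63% there and Ccl7 0.124% and 0.171%. Without Cxcl12 the summed level was 47.8 and 49.0 in wt and 61.6 and 63.3 in Top2β-null MEF cells, a smaller difference than in the full sum. Within each library, the log2 ratio of Cxcl1 to Ccl2 counts moved by 5.05, from -1.42 ± 0.0344 (SD, n = 2) in wt MEF cells to 3.63 ± 0.0766 in Top2β-null MEF cells.

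**Figure D3:**
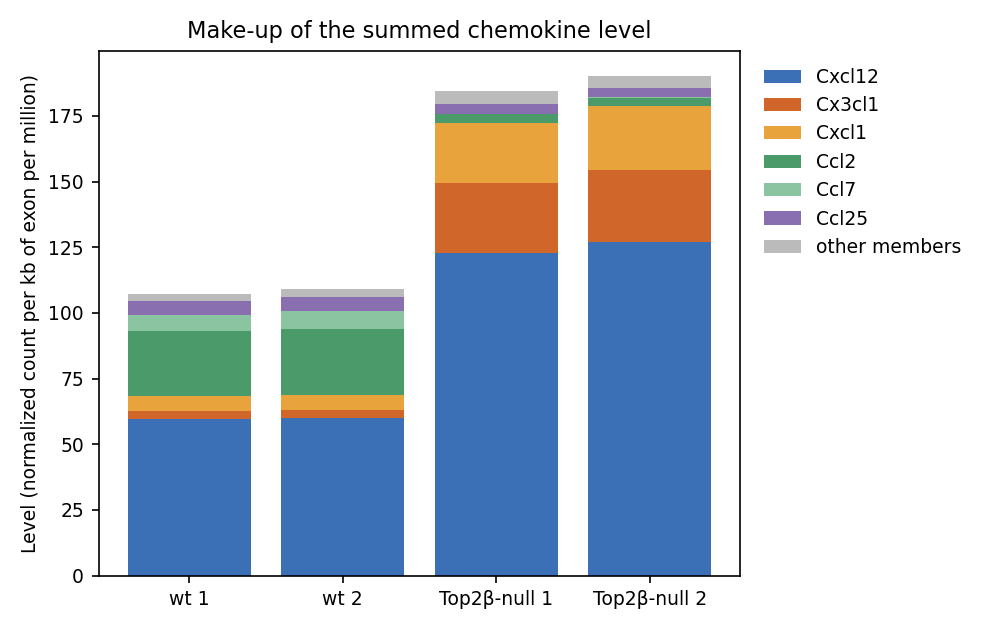
Summed level of the chemokine genes in each library, in normalized counts per kb of exon and 1000000 counts, stacked by gene. Cxcl12 takes 55.1% to 66.7% of each bar, Ccl2 is the next share in wt, and Cx3cl1 and Cxcl1 are the next shares in Top2β-null MEF cells.

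The 250 bases before the start were searched on both strands for an interferon-stimulated response element (ISRE, GAAA and again GAAA with any 2 bases between them) and for the NF-kB motif. RefSeq windows on GRCm38.p6 matched 26 of the 36 members on chromosomes by symbol, and 10 of the 15 members whose values in every library are given by rule. Ccl2, Ccl5, Ccl7, Cxcl5 and Cxcl16 had none. The start is that of RefSeq and can differ from the GENCODE positions given above. The Cx3cl1 window ends at 94772179, past the GENCODE start at 94772009, so that much of it lies inside the annotated gene. Of 32 windows of members, 27 were followed by bases found in a GENCODE transcript of the gene. The Ccl21b window was not, and lies apart from the GENCODE gene. The ISRE letters were found in 3 of the 26 genes, against 3.46% of 27025 genes with a window, and the NF-kB letters in 7 of 26, against 8.23%. Cxcl10 alone among the members held both, with the ISRE at bases -213 to -204 and NF-kB matches at -159 to -150 and at -104 to -94, and no ISRE overlapped an NF-kB match. Cxcl1 held an NF-kB match at -71 to -61 and Ccl9, which fell, held a match at -35 to -26. Among the members at low counts, Cxcl2, Cxcl3, Ccl20 and Ccl1 held NF-kB letters and Ccl19 and Cxcl14 held ISRE letters. Neither motif was found in the windows of Cx3cl1, Cxcl12, Ccl6, Ccl17, Ccl25, Ccl27a and Ccl28. A match describes letters and is no measure of binding, and no match says only that these letters are not in the window. The sequences of 5 genes are printed 5′ to 3′ on the strand of the gene, with matches in capitals, to set genes that rose with and without these letters beside Ccl9, which fell and holds NF-kB letters. Those of Cxcl10 and Ccl9 lie on the reverse strand of the chromosome.
Cxcl10, chr5:92348890-92349139: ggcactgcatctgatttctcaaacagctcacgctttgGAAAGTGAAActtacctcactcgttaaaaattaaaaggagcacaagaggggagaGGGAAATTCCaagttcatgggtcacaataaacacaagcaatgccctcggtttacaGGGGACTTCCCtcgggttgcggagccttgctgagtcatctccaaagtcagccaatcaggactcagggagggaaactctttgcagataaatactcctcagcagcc
Cxcl1, chr5:90890995-90891244: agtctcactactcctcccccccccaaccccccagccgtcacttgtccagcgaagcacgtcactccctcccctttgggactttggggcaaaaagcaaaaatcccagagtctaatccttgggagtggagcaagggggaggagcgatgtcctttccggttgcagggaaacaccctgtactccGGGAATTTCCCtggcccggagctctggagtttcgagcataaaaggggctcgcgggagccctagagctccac
Ccl9, chr11:83578637-83578886: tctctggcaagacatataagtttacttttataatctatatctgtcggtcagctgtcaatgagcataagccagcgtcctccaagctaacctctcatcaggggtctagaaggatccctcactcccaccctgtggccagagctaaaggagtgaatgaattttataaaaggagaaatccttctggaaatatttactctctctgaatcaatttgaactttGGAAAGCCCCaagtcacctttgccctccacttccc
Cx3cl1, chr8:94771930-94772179: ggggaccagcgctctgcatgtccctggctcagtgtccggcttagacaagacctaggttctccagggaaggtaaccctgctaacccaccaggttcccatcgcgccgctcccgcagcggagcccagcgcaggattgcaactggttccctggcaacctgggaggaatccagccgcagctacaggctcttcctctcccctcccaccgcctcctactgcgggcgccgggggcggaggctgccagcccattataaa
Cxcl12, chr6:117168285-117168534: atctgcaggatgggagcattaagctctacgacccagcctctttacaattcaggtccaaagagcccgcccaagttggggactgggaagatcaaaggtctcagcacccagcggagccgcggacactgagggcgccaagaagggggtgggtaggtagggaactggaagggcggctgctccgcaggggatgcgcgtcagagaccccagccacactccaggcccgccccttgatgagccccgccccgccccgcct

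Among 18 receptors of chemokines, 8 were tested, of which 5 rose and 1 fell by adjusted p alone, against 32.5% in each direction over all features, and Ccr10 was called lower. Ccr1 and Cxcr2, which are among the 5, reached 10 counts in Top2β-null libraries alone and had to differ. Ccr1, a receptor of Ccl5, Ccl6, Ccl7 and Ccl9, had 0 counts in both wt libraries, against 126 and 100 counts in Top2β-null MEF cells. The 95% exact interval of the ratio of Top2β-null to wt, for counting error alone, starts at 62.3 and has no upper limit. Cxcr2, the receptor of Cxcl1 and Cxcl5, had 2 and 0 counts in wt and 19 and 14 in Top2β-null MEF cells. The ratio for Cxcr2 was 16.9, with a 95% exact interval from 4.33 to 146 for counting error alone. Cxcr6 rose from 86.8 and 85.0 to 158 and 138 normalized counts. Cx3cr1, with 53.5 and 34.8 normalized counts in wt and 75.6 and 59.4 in Top2β-null MEF cells, had an adjusted p of 0.0505 (edgeR), and Ccr9 had 36.3 and 29.0 against 39.4 and 32.7. Ccr2, Ccr6, Cxcr1 and Cxcr3 were at 0 counts in all libraries, and Cxcr4, the signalling receptor of Cxcl12, had between 1 and 6 counts.

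Atypical receptors bind and remove chemokines without the usual signal. Of 5 listed, Ackr3, which takes up Cxcl12, rose from 61.6 and 50.2 normalized counts in wt to 694 and 738 in Top2β-null MEF cells, without overlap. Its log2 fold change came to 3.68 ± 0.115 (SE), with an adjusted p of 7.9e-14 by edgeR. Ackr4, which removes Ccl19, Ccl21 and Ccl25, fell by 0.67 on the log2 scale, from 165.5 and 164 to 98.4 and 109 normalized counts. The other 3 had at most 4 counts in any library.

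**Figure D4:**
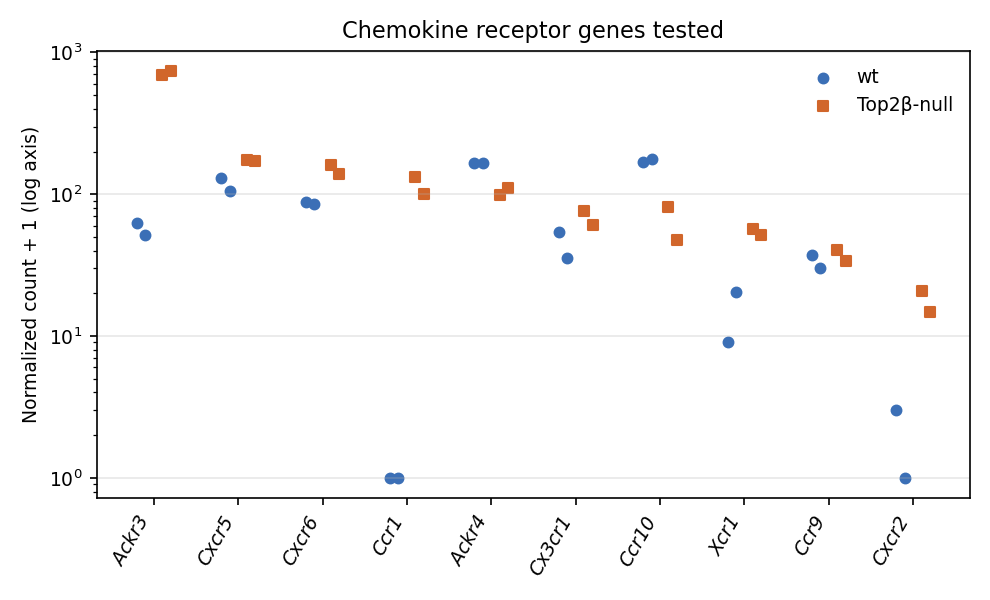
Normalized count plus 1 on a log axis for the 10 chemokine receptor genes tested, atypical receptors included, with a point for each library (blue circles, wt; orange squares, Top2β-null). Ackr3 reaches 694 and 738 normalized counts in Top2β-null MEF cells, and Ccr1 is at 0 in both wt libraries.

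Genes of the pathways known to induce chemokines were counted in the same fit. Of 13 genes of interferon and STAT signalling, all tested, 5 were called higher and 0 lower, where 5.27% and 4.97% of all features were. By adjusted p alone 11 rose and 1 fell, where 32.5% of all features did in each direction. Among the called genes were Irf9 (3.85-fold higher), Irf7 (3.08-fold), Irf1 (2.35-fold) and Stat2 (2.22-fold), which transmit the interferon signal to promoters. Of 15 genes of NF-kB signalling, 2 were called higher and 1 lower, where 5.27% and 4.97% of all features were. Of the 15, 8 rose and 5 fell by adjusted p alone, where 32.5% of all features did in each direction. The share that fell was close to this. Il1r1, the interleukin 1 receptor, rose to 4253 and 4255 normalized counts from 305 and 323 in wt MEF cells, and Tnfrsf1a, a receptor of TNF, rose 2.75-fold. Tnfaip3, a feedback inhibitor of NF-kB, fell from 10336 and 10436 to 2839 and 2923 normalized counts. Of 11 fibroblast cytokines, 8 were tested, of which 2 were called higher and 0 lower, where 5.27% and 4.97% of all features were. By adjusted p alone 6 rose and 1 fell, against 32.5% of all features in each direction. Il6 and Il33, which are among the 6, passed the filter through their Top2β-null libraries alone, so that they had to differ. Il6 was also 1 of the 2 called. Il6 rose from 5.05 and 8.69 normalized counts in wt to 312 and 347 in Top2β-null MEF cells, and Il11 rose 4.98-fold. None of the 5 genes listed for decay and stability of chemokine mRNA was called, where 10.2% of all features were. Of these 5, 2 rose and 3 fell by adjusted p alone, where 32.5% of all features did in each direction. Their median log2 fold change was -0.45. The median over all features tested was 0.0027.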

How the data were processed

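Reads had been trimmed with Trim Galore!, aligned to mm10 with STAR and assigned by TEtranscripts to Gencode genes and RepeatMasker repeats, as the paper's methods state. The authors deposited raw counts, 1 column per library, with no scaling. Symbols, positions and exon lengths come from GENCODE M21 (GRCm38), which held 54495 of the 54842 gene identifiers. Members, lists and tests were chosen with earlier results of these data known. The filter of 10 counts in 2 libraries left 25085 genes and 1481 repeat families. They were fitted by edgeR 4.0.16 in R 4.3.3 with TMM factors, a quasi-likelihood test and genotype as the sole term, and p-values were adjusted after Benjamini and Hochberg over these 26566 features. Each standard error is the log2 fold change over the root of its F value. The cut-offs of a call follow the paper's methods, where DESeq2 was used. Replicates differed beyond counting noise, with a chi-square of 3.65 per degree of freedom for wt and 5.07 for Top2β-null MEF cells. Members with over 100 normalized counts in either group, or with an adjusted p below 0.05 and a log2 fold change beyond 1, are given by library, Cxcl5 and Ccl28 as raw counts, and the others by counts. Cxcl17 falls outside this rule and was described after its values were seen. Pairs of genes set against each other within a library, and the shared promoter word, were picked after their values were seen. Intervals and floors cover counting error alone. The fit was tested on simulated data. Alternatives were DESeq2 1.42.0, other scalings, filters and cut-offs, a block for the replicate number and leaving out each library. Protein features of the members were not analysed here.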

Additional observations from a re-analysis of the deposited data

How the results depend on the processing

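The 8 called genes were called again with DESeq2, with TMM factors taken over genes alone, under total-count scaling, without a filter on low counts, under the replicate block, and without either wt replicate. The 16 tested members yielded 145 alternative values, all with the direction reported, and 144 kept the side of the adjusted p threshold. The exception was Cxcl17 without Top2β-null replicate 2 (adjusted p = 0.053 by edgeR). Under the replicate block, the median over the members was 1.39 and Cx3cl1 stood at 3.24 on the log2 scale. The correlation between same-numbered libraries was 0.0207 (17952 features), and the labels name no shared batch, so the numbers are not treated as pairs. With at least 100 counts in every library, 5 members were left, of which 3 were called higher and 1 lower, while 3 rose and 2 fell by adjusted p alone, with a median of 1.07. Here fewer members were tested. The median was 0.32 over 30 members without a filter, and ran from 0.22 to 1.30 when libraries were left out in turn. Without Top2β-null replicate 2, Cxcl10 and Cxcl16 were not called and Ccl9 was, and without Top2β-null replicate 1 Cxcl10 was not called. When a library was left out, the mean for the cut-off of 100 ran over the libraries kept. Leaving out a Top2β-null library lowers this mean for Cxcl10 and raises it for Ccl9. Over all 4 libraries it was 112 for Cxcl10 and 92.2 for Ccl9. With a mean over 20 normalized counts as the cut-off, 7 members were called higher, as Ccl27a and Ccl17 were added, and 5 lower, as Ccl6 and Ccl9 were added. Low counts limit Cxcl5, whose log2 fold change ran from 3.11 to 7.70 over the alternatives.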
